A study of Sus scrofa with 36 samples.

Results

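Heat shock proteins and molecular chaperones were examined in subcutaneous adipose tissue of 36 pigs. The members are all rows of the deposited table whose gene symbol begins with HSP, DNAJ, BAG and a digit, CCT and a digit from 2 to 8, or PDIA and a digit. This gave 62 of 12253 genes, of which 8320 carry a symbol. The gene name table holds 86 symbols of this form, and the 24 without a row here, HSPB1, HSPB8, HSPA6 and DNAJB6 among them, were not analysed here. The pigs come from an F2 intercross of Duroc and Göttingen Minipig and were chosen by their Obesity Index, a genetic value for the degree of obesity. 12 pigs had a low index (lean, 7 males and 5 females), 12 a mean index (intermediate, 6 males and 6 females) and 12 a high index (obese, 6 males and 6 females). The labels name no treatment, and each pig has 1 RNA-Seq library from whole tissue. The lean pigs were the oldest and the obese pigs the youngest at slaughter, because slaughter was set by weight, so group and age cannot be told apart.

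Molecular chaperones bind unfolded proteins and help them to reach or keep their shape. In the cytosol, HSP70 proteins work in a cycle with J-domain proteins (the DNAJ genes), which deliver clients and trigger ATP hydrolysis, and with exchange factors such as HSP110 and some BAG proteins, which release the nucleotide. HSP90 proteins mature kinases and steroid receptors, and the CCT ring folds actin and tubulin. The transcription factor HSF1 induces the heat-inducible set, whereas the unfolded protein response induces the chaperones of the endoplasmic reticulum (ER). Adipocytes secrete adipokines and matrix proteins through the ER, and ER stress has been studied in adipose tissue of obese animals for that reason.

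Levels are normalized counts, that is, reads recovered from the deposited log2 values divided by the size factor of the pig. They compare pigs for 1 gene, and they are not divided by gene length, so they do not compare genes. Recovered reads ranged from 8735838 to 11755925 per pig. Differences between groups are on the log2 scale of the deposited values, with a standard error (SE), from limma with group and sex as terms. Adjusted p-values are Benjamini-Hochberg values over all 12253 genes, and the threshold was 0.05. The median difference of all genes was -0.011 for obese minus lean and -0.0093 for males minus females, and it was not subtracted. In whole tissue, a change in the share of a cell type and a change of RNA per cell cannot be told apart.

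The members fell into 8 groups by role: 7 inducible cytosolic, 5 constitutive cytosolic, 12 ER, 7 mitochondrial and 6 CCT genes, 3 BAG and small heat shock protein genes, 18 other J-domain genes, and 4 further genes matched by name (HSPA12B, HSPG2, HSPBP1 and HSPBAP1). Together the 62 genes held 0.870 ± 0.080% (SD, n = 12) of the recovered reads in lean pigs, 0.879 ± 0.080% in intermediate pigs and 0.899 ± 0.046% in obese pigs. The inducible cytosolic genes held 0.135 ± 0.026%, 0.136 ± 0.038% and 0.138 ± 0.026%, and the ER genes 0.192 ± 0.032%, 0.187 ± 0.032% and 0.199 ± 0.018% in the same order. The means of the 3 groups differed by less than the lowest SD within a group for the inducible and the ER genes. The 4 further genes matched by name held 0.0997 ± 0.018%, 0.117 ± 0.015% and 0.117 ± 0.014%, and the other J-domain genes 0.0805 ± 0.0099%, 0.0760 ± 0.0045% and 0.0740 ± 0.0045%, whose lean and obese means differed by more than the SD in obese pigs. HSPG2 held most of the reads of the 4 further genes, and the obese minus lean differences of the other 3 were below 0. The shares were not tested.

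The tissue label was checked against markers. The adipocyte genes PLIN1 and CIDEC, 2 of 6 listed genes with a row, summed to between 15524 and 44812 normalized counts in every pig, and TNNC2, the 1 skeletal muscle gene of 8 with a row, stayed between 6.98 and 52.9. KRT10, the 1 skin gene of 4 with a row, stayed between 78.4 and 295, and the 4 fibroblast markers summed to between 128893 and 647613. Since counts do not compare genes, these levels do not give the shares of the cell types. Of the macrophage markers, 5 of 8 had a row and all 5 had higher values in obese than in lean pigs, 4 of them at an unadjusted p below 0.05 and 0 after adjustment. Their summed level ranged from 1598 to 8419 in lean pigs and from 3625 to 9490 in obese pigs. The 3 T or NK cell markers with a row of 5 listed also had higher values in obese pigs, 1 of them (NKG7, 0.84) at an unadjusted p below 0.05, and summed to between 108 and 367 in lean pigs and between 142 and 1431 in obese pigs. CIDEC differed by 0.54 (adjusted p 0.106 in limma) and PLIN1 by -0.060, and the blood genes ALAS2 and HBB differed by 0.74 and 0.88 (SE 0.55 and 0.61). None of these passed the adjusted threshold. Their part in the group differences of the members was not tested. Some pigs held many extremes of the members. A pig was among the 3 highest of the 36 for a median of 3.5 members and among the 3 lowest for a median of 4 members. Obese pig 8 was among the 3 highest for 17 members, obese pig 4 for 16 and obese pig 6 for 15, whereas lean pig 6 was among the 3 lowest for 17 and lean pig 12 for 16.

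Between obese and lean pigs, 0 of the 62 members passed the adjusted threshold, where 5 of 12253 genes did (0.0408%). At an unadjusted p below 0.05 there were 6 members, or 9.68%, against 14.7% of all genes. These 6 were BAG3, DNAJC3 and HSPG2 with higher values and DNAJC7, DNAJC4 and HSPA12B with lower values in obese pigs. The difference was above 0 for 42 of 62 members, compared with 47.5% of all genes, and its median was 0.048. Within males alone 44 of 62 members (71.0%) were above 0, against 54.7% of all genes, and within females alone 30 of 62 (48.4%), against 40.0%. The median of all genes moved as well, to 0.024 in males alone and -0.067 in females alone. The other contrasts gave the same count of 0 called members. For intermediate against lean pigs the background was 0% of all genes called and 12.5% at an unadjusted p below 0.05, with 5 members (8.06%) at that level. With each pig's median subtracted, the whole size factor and voom weights there were 9, 8 and 8 members (14.5%, 12.9% and 12.9%), against 13.4%, 13.4% and 13.5% of all genes. For obese against intermediate pigs it was 0% and 4.28%, with 2 members. For any difference between the 3 groups 0.0163% of all genes were called, and for a linear trend over the groups 0.0245%. The plot of the obese minus lean differences shows all members with their intervals.

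**Figure D1:**
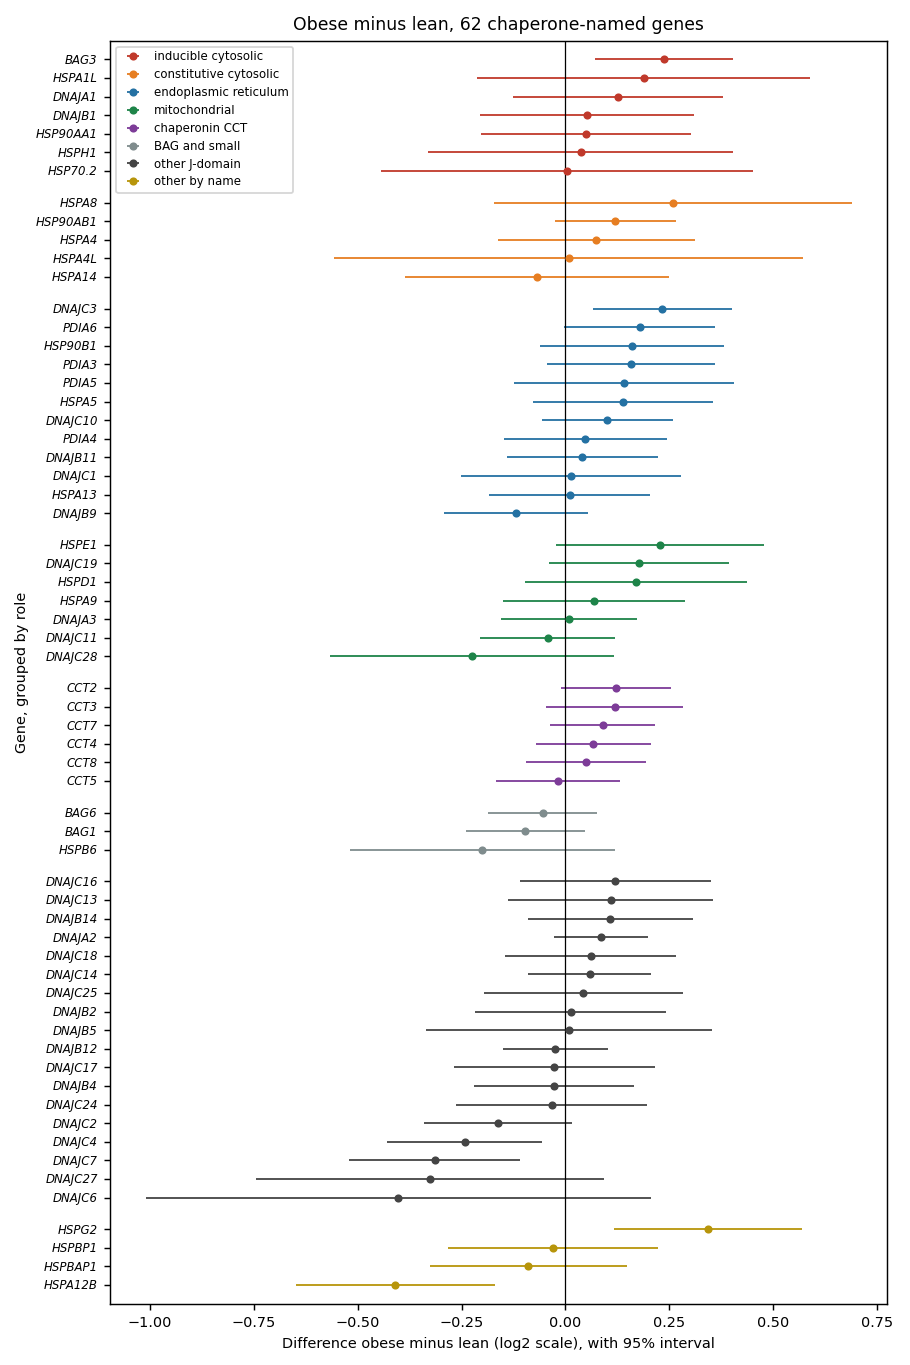
Difference between obese and lean pigs (12 each) for the 62 members, on the log2 scale of the deposited values, adjusted for sex. Points are limma estimates and bars are 95% intervals, coloured by role. 42 points lie to the right of 0, and the 6 intervals that exclude 0 are those of BAG3, DNAJC3, HSPG2, DNAJC4, DNAJC7 and HSPA12B, none of which passed the adjusted threshold.

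No inducible cytosolic chaperone passed the threshold between the groups. HSPH1, the HSP110 exchange factor that heat shock induces, had 352, 604 and 1506 normalized counts as lowest, median and highest value in lean pigs, 388, 616 and 1307 in intermediate pigs and 411, 673 and 1254 in obese pigs. The 3 groups cover nearly the same range. Its obese minus lean difference was 0.036 (SE 0.18), with a 95% interval from -0.33 to 0.40. DNAJA1, a J-domain partner of cytosolic HSP70, had medians of 2023, 2055 and 1999 and a difference of 0.13 (SE 0.12). DNAJB1, the J-domain partner most typical of the heat shock response, had medians of 538, 680 and 550 and a difference of 0.052 (SE 0.13). HSP90AA1, the inducible HSP90, had medians of 4863, 5349 and 5078 and a difference of 0.049 (SE 0.12). All 7 differences of this list were above 0, from 0.0036 for HSP70.2 to 0.24 for BAG3, with a median of 0.052. Within males alone 6 of 7 were above 0, and within females alone 3 of 7, with a median of -0.016 where that of all genes was -0.067. Leaving out 1 pig could bring HSP70.2, DNAJB1 and HSPH1 below 0.

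BAG3 was the member of this list with the smallest p. BAG3 binds HSP70 and directs damaged clients to autophagy. Its lowest, median and highest values were 1020, 1317 and 1611 in lean pigs, 1172, 1456 and 1734 in intermediate pigs and 1336, 1548 and 2030 in obese pigs. The lean median was exceeded by all 12 obese pigs, but the groups overlap. The difference was 0.24 (SE 0.082), a fold of 1.18, with an unadjusted p of 0.0065 and an adjusted p of 0.151 from limma. 5 members (BAG3, PDIA6, CCT3, HSPG2 and DNAJC7) had every obese pig on 1 side of the lean median, against 4.33% of all genes, and no member had obese and lean pigs without overlap.

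2 genes of this list cannot be read apart from each other. HSPA1L is a relative of the heat-inducible HSP70 genes that lies beside them in mammals and is not itself known as heat-inducible, so that its place in the list rests on its name and position. In the RefSeq annotation of Sscrofa11.1, which is a later assembly than the one counted on, the span of HSPA1L covers HSP70.2. Reads of the heat-inducible HSP70 genes may therefore stand under either name, or may have been dropped as not unique. HSPA1L had 2512, 3661 and 5639 normalized counts in lean pigs, 1948, 3186 and 8900 in intermediate pigs and 2366, 4052 and 7702 in obese pigs, with a difference of 0.19 (SE 0.20). HSP70.2 stayed between 8.15 and 44.3 counts in every pig.

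No constitutive cytosolic chaperone passed between the groups. HSPA8, the housekeeping HSP70, had 349, 563 and 1167 normalized counts in lean pigs, 296, 633 and 1312 in intermediate pigs and 423, 576 and 1838 in obese pigs. Obese pig 6 held the highest value. The difference was 0.26 (SE 0.21), and without that pig it was 0.14. HSP90AB1, the constitutive HSP90, had medians of 9080, 9059 and 10125, and the difference was 0.12 (SE 0.071) with an adjusted p of 0.445. HSPA4 and HSPA14 differed by 0.074 (SE 0.12) and -0.069 (SE 0.16), and HSPA4L, at 9.92 to 85.2 counts, by 0.0077 (SE 0.28).

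Of the ER chaperones, 0 of 12 passed the adjusted threshold, and 11 of 12 differences between obese and lean pigs were above 0, with a median of 0.12. Within males alone all 12 were above 0, with a median of 0.18, and within females alone 6 of 12, with a median of -0.0066, where the medians of all genes were 0.024 and -0.067. The interaction with sex was above 0 (a higher difference in males) for 10 of 12, with a median of 0.24 and 0 called, where 60.4% of all genes were above 0 with a median of 0.086. With the whole size factor it was above 0 for 8 of 12, with a median of 0.16, against 50.4% of all genes and a median of 0.0031. HSPA5 (BiP), the HSP70 of the ER and the sensor partner of the unfolded protein response, had 2599, 3590 and 4799 normalized counts in lean pigs, 2514, 3612 and 5424 in intermediate pigs and 3358, 3776 and 5778 in obese pigs. The lowest obese pig lay above the lowest pigs of the other groups, and the medians differed little. The difference was 0.14 (SE 0.11), with an interval from -0.079 to 0.36. HSP90B1 (GRP94), the HSP90 of the ER, had 2541, 3886 and 5100 counts in lean pigs, 3028, 3933 and 5093 in intermediate pigs and 3749, 4354 and 5050 in obese pigs, and a difference of 0.16 (SE 0.11). Its highest values were nearly alike in the 3 groups, whereas low values occurred in lean and intermediate pigs. The SD of the ER share of reads was 0.032% in lean and in intermediate pigs and 0.018% in obese pigs. This difference in spread was not tested.

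The protein disulfide isomerases form and exchange disulfide bonds in secreted proteins. PDIA6 had 1732, 2202 and 2877 normalized counts in lean pigs, 1783, 2259 and 3204 in intermediate pigs and 2214, 2484 and 3066 in obese pigs. The lean median was exceeded by all 12 obese pigs. The difference was 0.18 (SE 0.090), with an adjusted p of 0.353 in limma. PDIA3 and PDIA5 differed by 0.16 (SE 0.10) and 0.14 (SE 0.13), and PDIA4 by 0.047 (SE 0.097).

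Among the J-domain proteins of the ER, DNAJC3 (p58IPK), which binds clients of HSPA5 and holds back the kinase PERK, was the member with the smallest p for intermediate against lean pigs. It had 308, 401 and 480 normalized counts in lean pigs, 442, 483 and 552 in intermediate pigs and 332, 467 and 611 in obese pigs. 11 of 12 obese pigs lay above the lean median. Its difference was 0.29 (SE 0.083) for intermediate minus lean, with an adjusted p of 0.232, and 0.23 (SE 0.083) for obese minus lean, with an adjusted p of 0.162. The obese minus lean difference of DNAJC3 was 0.40 (SE 0.11) in males alone and 0.028 (SE 0.11) in females alone. Its interaction with sex was 0.38 (SE 0.16, adjusted p 0.314 in limma) on the deposited values, which keep part of the depth. On values divided by the whole size factor, its male minus female difference was 0.21 among obese and -0.086 among lean pigs. DNAJB9, an ER co-chaperone that the unfolded protein response induces, was the 1 member of the list with a negative difference, at -0.12 (SE 0.085). DNAJB11, DNAJC10, DNAJC1 and HSPA13 differed by 0.041, 0.10, 0.013 and 0.0097.

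**Figure D2:**
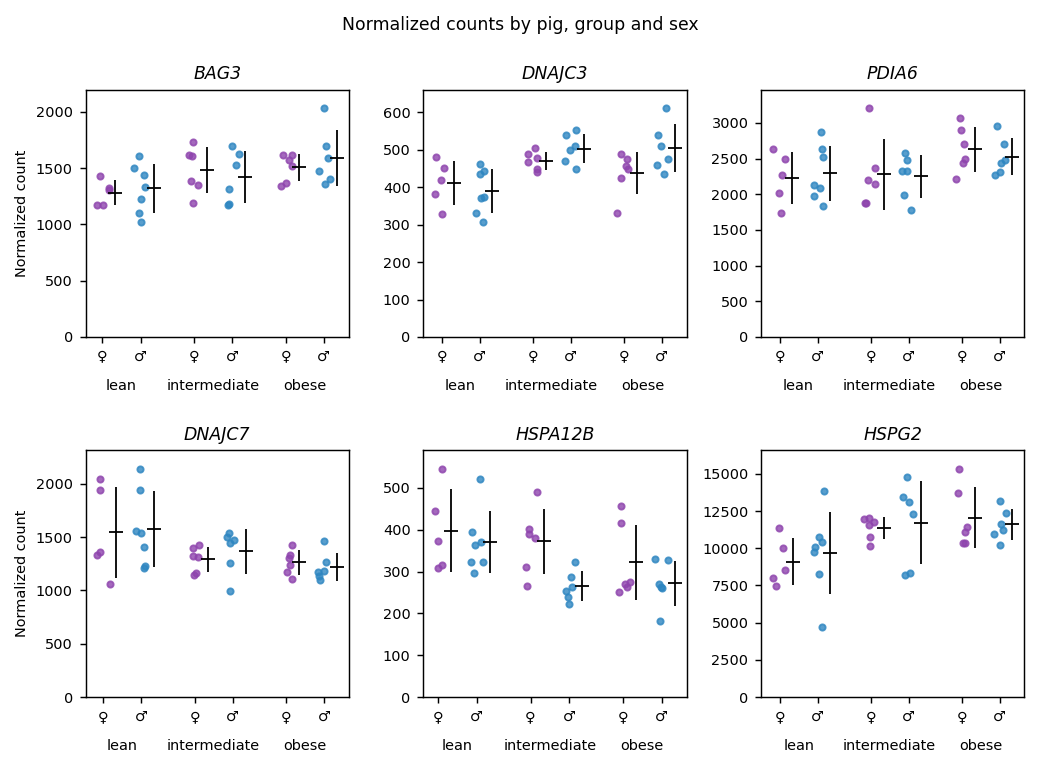
Normalized counts of BAG3, DNAJC3, PDIA6, DNAJC7, HSPA12B and HSPG2 in each of 36 pigs, by group and sex (♀ female, ♂ male). Each point is a pig, and the black mark with its bar is the mean ± SD. BAG3 runs from 1020 to 1611 in lean and from 1336 to 2030 in obese pigs, and every one of the 6 genes has overlapping groups.

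Further genes of these pathways were counted from lists. Of 29 listed cytosolic and mitochondrial folding partners and regulators, 16 had a row and 0 were called, and 0 had an unadjusted p below 0.05 for obese against lean pigs. Of 26 listed genes of ER folding and the unfolded protein response, 11 had a row and 0 were called. SIL1, the exchange factor of HSPA5, was higher by 0.25 (SE 0.11, adjusted p 0.285 in limma) and XBP1, the transcription factor of the IRE1 branch, differed by -0.22 (SE 0.11, adjusted p 0.333).

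No mitochondrial chaperone passed between the groups. Within males alone 3 of 7 obese minus lean differences were above 0, with a median of -0.018. Within females alone 5 of 7 were, with a median of 0.21, where the medians of all genes were 0.024 and -0.067. The interaction with sex was above 0 for 1 of 7, with a median of -0.22 and 0 called, where that of all genes was 0.086. With the whole size factor these medians were -0.30 and 0.0031. HSPD1 (HSP60) and HSPE1 (HSP10) form the folding chamber of the matrix, and HSPA9 (mortalin) pulls proteins through the inner membrane. HSPD1 had 2690, 4501 and 8076 normalized counts in lean pigs, 3863, 4837 and 7559 in intermediate pigs and 4357, 5383 and 8204 in obese pigs, and a difference of 0.17 (SE 0.13). HSPE1 had medians of 2584, 2787 and 2991 and a difference of 0.23 (SE 0.12, adjusted p 0.397 in limma). The lean pigs spanned the widest range for both genes. HSPA9 had a difference of 0.069 (SE 0.11). DNAJC19, a J-domain protein of the import motor, differed by 0.18 (SE 0.11) and DNAJC28 by -0.22 (SE 0.17).

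Of the CCT subunits, 5 of 6 had differences above 0, from -0.018 for CCT5 to 0.12 for CCT2, with SEs of 0.062 to 0.081. CCT3 had 1228, 1592 and 2463 normalized counts in lean pigs and 1599, 1709 and 2313 in obese pigs. The lean median was exceeded by all 12 obese pigs, and the highest value of the 36 was that of lean pig 10. The small heat shock protein HSPB6 (HSP20) differed by -0.20 (SE 0.16), the HSP70 exchange factor BAG1 by -0.097 (SE 0.070) and BAG6, which shields and sorts membrane proteins outside their membrane, by -0.055 (SE 0.064).

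Among the other J-domain genes, 9 of 18 differences were above 0. DNAJC7, which binds both HSP70 and HSP90 through its TPR repeats, had 1055, 1473 and 2140 normalized counts in lean pigs, 991, 1357 and 1534 in intermediate pigs and 1099, 1210 and 1467 in obese pigs. All 12 obese pigs lay below the lean median. The difference was -0.31 (SE 0.10), with an adjusted p of 0.123 in limma. Over the pigs, after group and sex and on whole size factor residuals, DNAJC7 had an r of -0.59 with the mean of the scaled macrophage markers, which had higher values in obese pigs, and of -0.62 with that of the fibroblast markers. The 4 fibroblast markers summed to between 143325 and 549526 normalized counts in lean pigs and between 128893 and 647613 in obese pigs, and 3 of them had higher values in obese pigs. The part of these cells was not tested. DNAJC4 had medians of 171, 162 and 146 and a difference of -0.24 (SE 0.092, adjusted p 0.195). The next lowest p-values with a negative sign were those of DNAJC2, DNAJC27 and DNAJC6, at -0.16, -0.33 and -0.40. That of DNAJC6 was -0.24 without lean pig 6 and -0.52 without lean pig 1. With a positive sign they were those of DNAJA2, DNAJB14, DNAJC16, DNAJC13 and DNAJC14, at 0.085, 0.11, 0.12, 0.11 and 0.058.

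The most negative and the most positive difference belonged to HSPA12B and HSPG2, 2 of the further genes matched by name. These were picked out after their values were seen. HSPA12B, a distant HSP70 relative of endothelial cells, had 296, 367 and 546 normalized counts in lean pigs, 223, 299 and 490 in intermediate pigs and 183, 269 and 456 in obese pigs. 10 of 12 obese pigs lay below the lean median. Its difference was -0.41 (SE 0.12), a fold of 0.753, with an adjusted p of 0.0946, the smallest of any member in this contrast. Without lean pig 8 it passed, at -0.45 with an adjusted p of 0.0435. The endothelial markers PECAM1, KDR and TEK, 3 of 5 listed with a row, differed by -0.28, -0.33 and -0.18, and their summed level ranged from 8301 to 14896 in lean and from 6724 to 11545 in obese pigs. The part of these cells in the result was not tested. HSPG2 (perlecan), a proteoglycan of basement membranes and not a chaperone, had 4707, 9906 and 13825 counts in lean pigs, 8222, 11851 and 14816 in intermediate pigs and 10198, 11346 and 15344 in obese pigs, and a difference of 0.34 (SE 0.11, adjusted p 0.128 in limma).

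Males and females were compared in the same fit. Here 1 of 62 members passed the adjusted threshold for males against females (1.61%), against 2.19% of all genes. At an unadjusted p below 0.05 there were 14 members (22.6%), 11 of them higher in males, against 18.3% of all genes. The difference was above 0 for 42 members, against 47.7% of all genes. For a sex by group interaction, tested on obese and lean, 0 members were called, against 0.00816% of all genes, and 7 members (11.3%) had an unadjusted p below 0.05, against 12.9%. That number was 3 (4.84%) with each pig's median subtracted, with the whole size factor and with voom weights, against 11.8%, 11.9% and 12.0% of all genes.

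HSPA13, an HSP70 family member of microsomes, was the member that passed. It had 317, 379 and 505 normalized counts as lowest, median and highest value in the 17 females and 353, 484 and 735 in the 19 males. 18 of 19 males lay above the female median. The male minus female difference was 0.30 (SE 0.078), a fold of 1.23, with an adjusted p of 0.0338 in limma. On values divided by the whole size factor, males were higher by 0.21 among lean pigs, 0.23 among intermediate pigs and 0.49 among obese pigs. The call depended on single pigs. It held in 29 of 36 fits that left out 1 pig. The adjusted p from limma was 0.0632 without obese pig 1, 0.0580 without obese pig 6, 0.0568 without intermediate pig 3, 0.0534 without obese pig 3, 0.0518 without obese pig 4, 0.0507 without obese pig 8 and 0.0503 without lean pig 9. The difference stayed between 0.26 and 0.32 in all of them. In RefSeq the span of HSPA13 overlaps another gene, as do the spans of 21 of the 61 members with an entry there, so that some reads may belong to the neighbour.

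3 cytosolic partners had larger differences that missed the threshold. HSPH1 had 352, 532 and 992 normalized counts in females and 455, 764 and 1506 in males. 17 of 19 males lay above the female median. The difference was 0.51 (SE 0.15), a fold of 1.42, with an adjusted p of 0.0586 in limma. HSPH1 passed in 6 of 36 fits that left out 1 pig, and its adjusted p was 0.0451 on values divided by the whole size factor. HSPA8 had 296, 531 and 978 counts in females and 408, 742 and 1838 in males, and a difference of 0.52 (SE 0.17, adjusted p 0.0940). DNAJA1 had 1308, 1794 and 2615 counts in females and 1406, 2396 and 3510 in males, and a difference of 0.34 (SE 0.10, adjusted p 0.0656), and it passed in 3 of those 36 fits. In each of the 3 groups the mean of the males was above that of the females for all 4 genes.

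**Figure D3:**
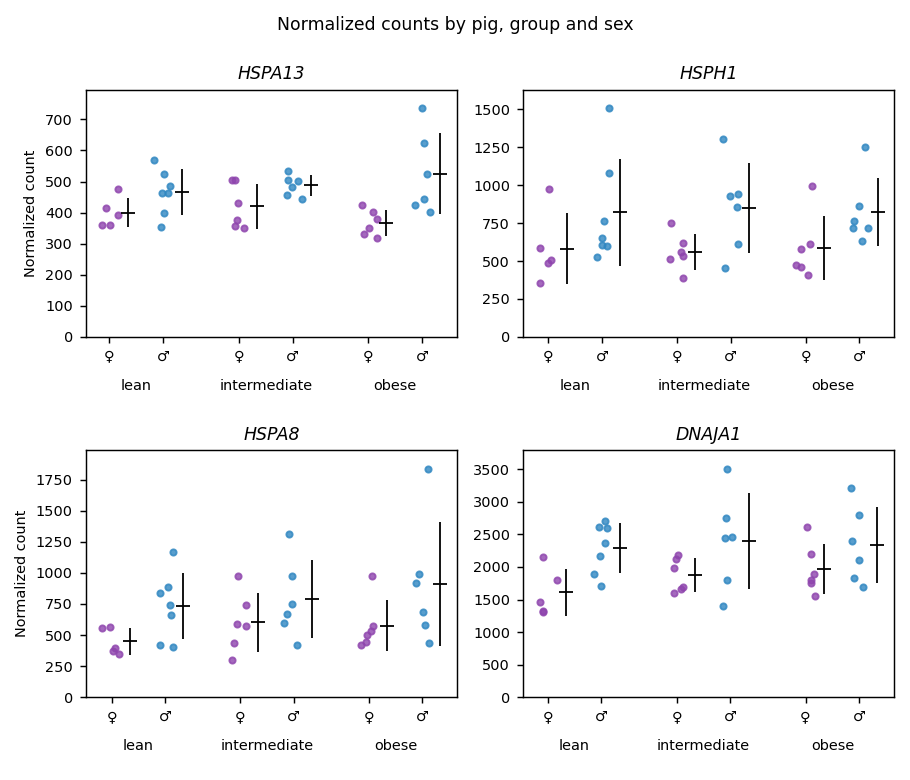
Normalized counts of HSPA13, HSPH1, HSPA8 and DNAJA1 in each of 36 pigs, by group and sex (♀ female, ♂ male). Each point is a pig and the black mark with its bar is the mean ± SD. HSPH1 has a mean of 820 in lean males and 582 in lean females, and the male mean is the higher one in every panel and group, with overlapping points.

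No other member passed between the sexes in the fit of all pigs. DNAJB1, HSP90AA1, BAG3 and HSP70.2, inducible genes too, had male minus female differences of -0.039 (SE 0.10), 0.036 (SE 0.10), 0.0017 (SE 0.067) and -0.012 (SE 0.18). In the ER, HSPA5 and DNAJB11 differed by 0.18 (SE 0.088) and 0.16 (SE 0.073), HSP90B1 by -0.0046 (SE 0.089) and DNAJC1 by -0.32 (SE 0.11). HSPA4L, at few counts, differed by 0.35 (SE 0.23, adjusted p 0.425 in limma). HSPA9 differed by 0.24 (SE 0.089) and the CCT subunits CCT3 and CCT5 by 0.16 each (SE 0.066 and 0.060). HSPA9 passed in 1 of 36 fits that left out 1 pig, at an adjusted p of 0.0449 in limma without lean pig 2. HSPA12B had lower values in males, with a male minus female difference of -0.28 (SE 0.097, adjusted p 0.116 in limma). Cell markers were compared between the sexes as well. All 4 fibroblast markers with a row had higher values in males, by 0.59 to 0.68, of which 1, DCN, was called, and their summed level ranged from 214082 to 647613 in males and from 128893 to 489769 in females. All 3 T or NK cell markers with a row had lower values in males, each at an unadjusted p below 0.05 and 0 called, and their summed level ranged from 95.5 to 435 in males and from 154 to 1431 in females. All 5 macrophage markers had lower values in males, 1 of them (CD68, -0.43) at an unadjusted p below 0.05 and 0 called, and their summed level ranged from 1598 to 8268 in males and from 2219 to 9490 in females. The adipocyte genes PLIN1 and CIDEC differed by -0.33 (adjusted p 0.0920 in limma) and -0.044, and their summed level ranged from 15524 to 37188 in males and from 18209 to 44812 in females. The part of these cells in the sex differences was not tested.

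Between pigs, most members varied little. The SD of the log2 values over the 36 pigs had a median of 0.27 in the 62 members and 0.34 in all genes, and 14 members (22.6%) lay above the median of all genes. The steadiest were DNAJA2 (SD 0.13), DNAJB12 (0.14), CCT7 (0.14), BAG6 (0.14) and CCT2 (0.15). The most variable were DNAJC6 (0.76), HSPA4L (0.70), HSPA8 (0.59), HSP70.2 (0.52), DNAJC27 (0.52) and HSPH1 (0.51). HSPA4L, HSP70.2 and DNAJC27 were at few counts, with lowest values of 9.92, 8.15 and 6.31, so that their spread includes counting error. DNAJC6 (auxilin), which uncoats clathrin vesicles, had 1 pig far from the rest, intermediate pig 6 at 798 normalized counts, compared with medians of 102, 96.6 and 85.2 in the 3 groups. The same pig held the highest DNAJB5 value, 476, compared with medians of 136, 140 and 134.

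To see which chaperones varied together, Pearson's r and Spearman's rho were computed over the 36 pigs for 24 pairs, on residuals after group and sex. 2-sided permutation tests with 100000 resamples were adjusted over the 24 pairs. 17 pairs passed at an adjusted p of 0.05 on the deposited values and 10 pairs on values divided by the whole size factor. The pigs share the same libraries and depth across genes, and the deposited values keep part of the depth. Over all pairs of genes in the table the median r was 0.044 on the deposited values and -0.0024 after division by the whole size factor.

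HSPH1 varied with some of the cytosolic chaperones. HSPH1 had an r of 0.69 with DNAJA1 (rho 0.68) and of 0.68 with HSPA8 (rho 0.61), with adjusted permutation p-values of 4.8e-05 and 6.0e-05. Without the 2 pigs farthest from the median of HSPH1 the r values were 0.66 and 0.65. They were 0.71, 0.70 and 0.68 with DNAJA1 in lean, intermediate and obese pigs, and 0.64, 0.69 and 0.80 with HSPA8. HSPH1 with HSP90AA1 had an r of 0.55 (rho 0.54, adjusted permutation p 0.00125) and 0.55 without the 2 pigs. HSPH1 with DNAJB1 had an r of 0.38 (rho 0.38), and its adjusted permutation p was 0.0331 on the deposited values and 0.0768 with the whole size factor. HSPH1 with HSP90AB1 had an r of 0.21 (adjusted permutation p 0.232), and it was 0.52 among lean pigs, 0.58 among intermediate pigs and -0.62 among obese pigs. HSPH1 with BAG3 had an r of 0.24 (adjusted permutation p 0.176). Over all pairs within a list the median r was 0.32 for the inducible and 0.19 for the constitutive cytosolic genes. Outside the 24 pairs and with no test, DNAJA1 with HSPA4 had an r of 0.88 and DNAJA1 with HSPA8 an r of 0.79. The r of DNAJA1 with HSPA4 was the highest of the 1891 pairs of members, whose median was 0.095.

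HSPA5 varied with 5 of the other ER chaperones under both scalings. HSPA5 had an r of 0.78 with HSP90B1 (rho 0.80), 0.74 with PDIA3 (rho 0.78), 0.71 with PDIA6 (rho 0.70), 0.68 with PDIA4 (rho 0.72) and 0.65 with DNAJB11 (rho 0.65). Their adjusted permutation p-values ranged from 4.8e-05 to 8.0e-05, and all 5 passed with the whole size factor. Without the 2 pigs farthest from the median of HSPA5 the r values ranged from 0.64 to 0.77. In obese pigs alone they were 0.61, 0.62, 0.48, 0.39 and 0.62, and in lean pigs alone 0.85, 0.85, 0.80, 0.83 and 0.87. The difference between the groups was not tested. HSPA5 with DNAJC3 and PDIA5 had r values of 0.41 and 0.40 (rho 0.40 and 0.40), which passed on the deposited values (adjusted permutation p 0.0212 and 0.0261) and not with the whole size factor (0.0691 and 0.0669). HSPA5 with DNAJB9 and DNAJC10 had r values of 0.32 and 0.25 (rho 0.34 and 0.28; adjusted permutation p 0.0749 and 0.169). With no test, HSP90B1 had an r of 0.88 with PDIA4 and of 0.85 with PDIA6. The r with PDIA4 was the highest of the 66 pairs within the ER list, whose median was 0.41.

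**Figure D4:**
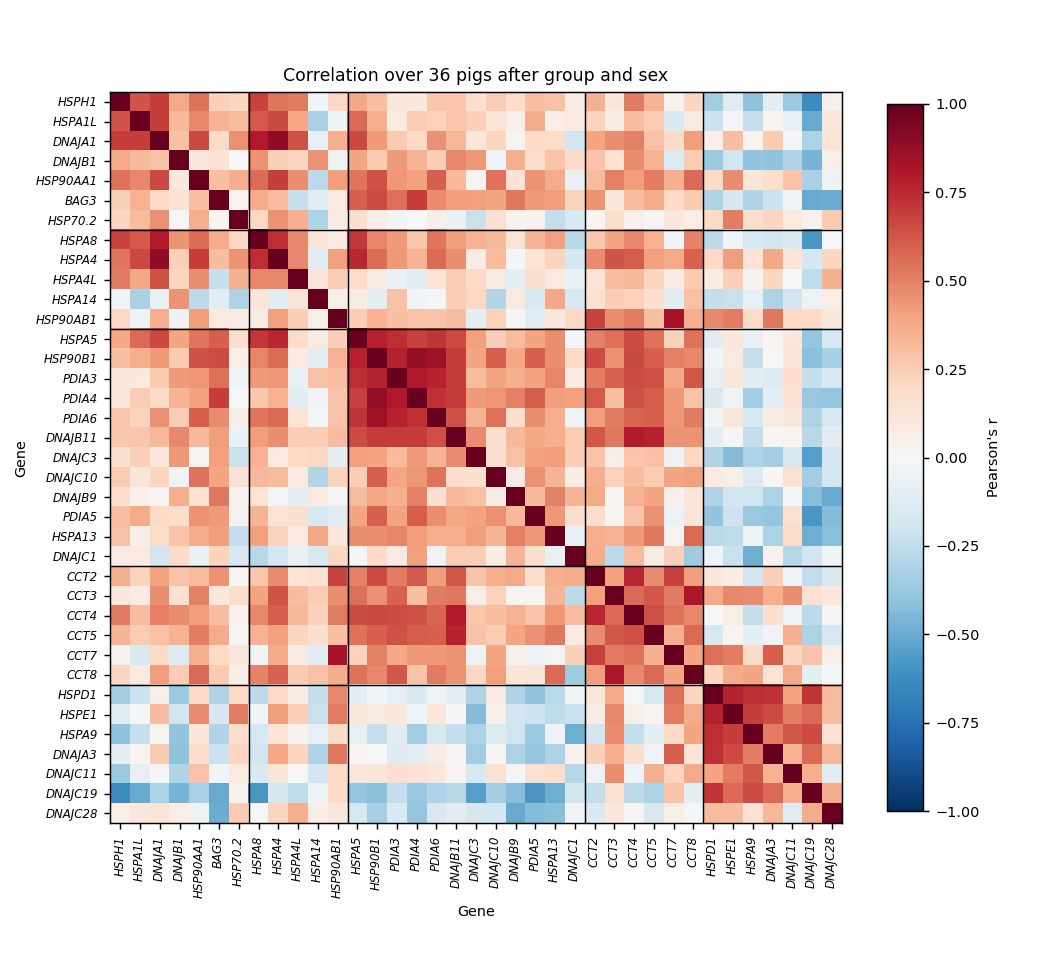
Pearson's r over 36 pigs, after group and sex, for 37 members in the order inducible cytosolic, constitutive cytosolic, ER, CCT and mitochondrial, with black lines between the lists. Red is positive and blue is negative. The block of 6 ER genes from HSPA5 to DNAJB11 has r values of 0.65 to 0.88, and all 12 ER genes span -0.078 to 0.88 with a median of 0.41. The median over the 72 pairs of an ER and a CCT gene is 0.41 too. Of the pairs of a mitochondrial and an ER gene, 20 of 84 are above 0.

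Cytosolic and ER genes were compared with each other in the same way. HSPH1 with HSPA5 had an r of 0.38 (rho 0.34), with an adjusted permutation p of 0.0310, and 0.0691 with the whole size factor. HSPH1 with HSP90B1 had an r of 0.30 (rho 0.31; adjusted permutation p 0.0920). As a description, the r of HSPA5 was 0.75 with HSPA4, 0.71 with HSPA8 and 0.66 with DNAJA1, and that of BAG3 was 0.69 with PDIA4 and 0.65 with HSP90B1. The r of BAG3 with PDIA4 was the highest between an inducible cytosolic and an ER gene. Over the 84 pairs of an inducible cytosolic and an ER gene the median r was 0.26, within the ER list 0.41 and within the inducible list 0.32. Over the 72 pairs of an ER and a CCT gene it was 0.41, the same as within the ER list. With the whole size factor the median was 0.34 for ER with CCT genes and 0.35 within the ER list.

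Among the mitochondrial chaperones r ranged from -0.11 to 0.77, with a median of 0.51 over 21 pairs. With the inducible cytosolic genes r ranged from -0.64 to 0.51, with a median of -0.050 and 21 of 49 pairs above 0. With the ER genes it ranged from -0.58 to 0.18, with a median of -0.16 and 20 of 84 pairs above 0. HSPD1 had an r of 0.77 with HSPE1, with which it shares a promoter in mammals, and of 0.74 with HSPA9. These pairs had no test. The r of HSPD1 with HSPE1 was 0.87 among lean pigs, 0.00039 among intermediate pigs and 0.88 among obese pigs, and 0.71 over the pigs without lean pigs 2 and 10. HSPH1 had an r of -0.35 with HSPD1 (rho -0.26), with an adjusted permutation p of 0.0511, and of -0.12 with HSPE1. DNAJC19 had r values of 0.71 with HSPD1 and -0.64 with HSPH1, the latter being the lowest of the 49 pairs of a mitochondrial and an inducible gene. The mean of the scaled adipocyte markers had an r of 0.56 with HSPD1, 0.52 with HSPA9 and -0.32 with HSPH1, all on whole size factor residuals. The macrophage markers had r values of -0.47, -0.43 and 0.18 with the same genes, 0.45 with HSPA8 and 0.44 with HSPA5. Immediate early genes, which respond within a short time to handling and other stimuli, had r values of 0.50 with HSPH1, 0.47 with HSPA8, 0.37 with HSPA13 and 0.29 with HSPA5, for the 6 of 9 listed genes with a row. Their summed level ranged from 1929 to 7116 normalized counts in males and from 1749 to 15510 in females, and 0 of them were called between the sexes or between obese and lean pigs. At an unadjusted p below 0.05 there was 1 in each, ATF3, with a difference of -0.64 for males minus females and of 1.13 for obese minus lean (adjusted p 0.262 and 0.134 in limma). The other 5 differed by -0.80 to 0.11 for obese minus lean. HSPA13 also had an r of -0.45 with the adipocyte and 0.33 with the macrophage markers. Their part in these patterns was not tested.

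**Figure D5:**
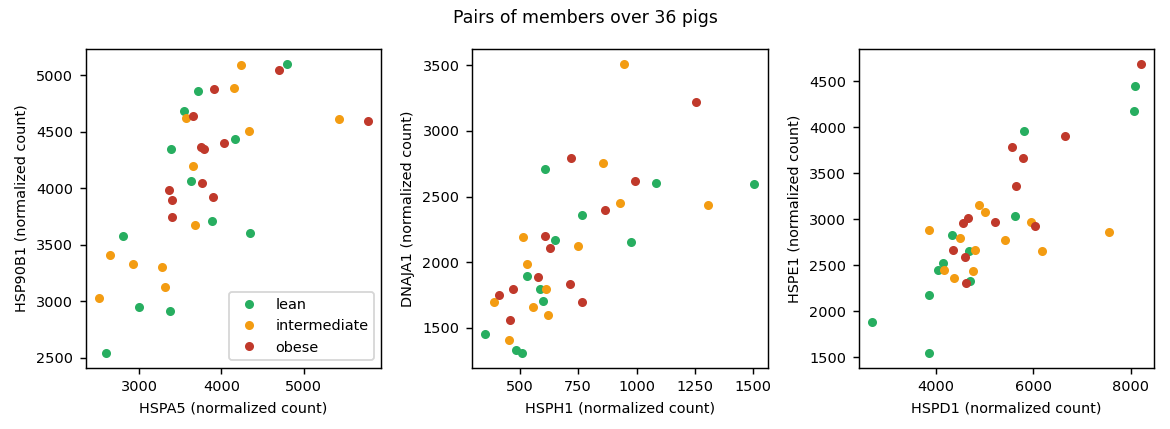
Normalized counts of HSP90B1 against HSPA5, DNAJA1 against HSPH1 and HSPE1 against HSPD1 in 36 pigs. Each point is a pig, coloured by group. Over all 36 pigs the 3 pairs are positively related, with r values of 0.78, 0.69 and 0.77 after group and sex, and the groups are mixed along each cloud. Among intermediate pigs alone the r of HSPE1 with HSPD1 was 0.00039.

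The CCT subunits, which assemble in equal number into 1 ring, were positively related in all 15 pairs, with r values from 0.36 to 0.81. CCT2 had an r of 0.76 with CCT4 (rho 0.82) and of 0.68 with CCT7 (rho 0.70), with adjusted permutation p-values of 4.8e-05 and 6.0e-05, and of 0.81 and 0.71 without the 2 pigs farthest from the median of CCT2. With CCT5, CCT8 and CCT3 the r was 0.47, 0.42 and 0.41, which passed on the deposited values (adjusted permutation p 0.00740, 0.0212 and 0.0212) and not with the whole size factor (0.0691 each). CCT7 had an r of 0.82 with HSP90AB1, and CCT4 and CCT5 had r values of 0.79 and 0.77 with the ER gene DNAJB11, which are descriptions with no test. The r of CCT4 with DNAJB11 was the highest of the 72 pairs of an ER and a CCT gene, whose median was 0.41.

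The genes most like 3 of the members over all named genes were taken by r on whole size factor residuals and were named after their values were seen. For HSPA5 the first 2 were CALR (r 0.80) and HYOU1 (0.79), both ER chaperones outside the naming rule, and HSP90B1 was the fourth (0.76). For HSPD1 they were AIFM1 (0.91) and COX5A (0.90), proteins of mitochondria. For HSPH1 they were UBQLN4 (0.75) and ADORA3 (0.72), and HSPA8, DNAJA1 and the HSP70-HSP90 adaptor STIP1 were the fifth, the sixth and the seventh (0.67 each). These values were not tested.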

How the data were processed

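RNA-Seq reads of subcutaneous adipose tissue from 36 pigs were, per the labels and methods, mapped to Sscrofa10.2 with STAR and counted with HTSeq. The authors dropped genes with low counts, took DESeq size factors as library sizes for voom of limma, and deposited log2 values per gene and pig. The deposited log2 values fit reads plus 0.5, over the size factor plus 1, times 1000000: in the column with the fewest such values, 99.9% lay within 0.1 of a whole read, and size factors ranged from 0.796 to 1.18. Depth is thus only partly scaled out. The paper reports a correction for gender, but values of this form carry no correction for sex. The lowest count is 6 reads. Intervals reflect the spread between these pigs. 0 columns of values went unused. The strand setting of the counting is not given in the sources used here.

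limma 3.58.1 in R 4.3.3 was fitted to all genes and pigs with group and sex, with moderation and an intensity trend. Normalized counts, correlations and permutations used Python 3.11.15 and numpy 2.4.6. Gene lists, pairs and members were chosen with earlier results of these data known. All members of the cytosolic, ER, mitochondrial, small heat shock, BAG and CCT lists could be named. Of the other J-domain genes, those called, the 5 lowest p-values in each direction for obese against lean, and the 5 largest and 5 smallest SDs were named, and pathway genes at an unadjusted p below 0.05. Alternatives were a fit without sex, 2 groups alone, no trend, no genes of the lowest 25%, each pig's median subtracted, the whole size factor, voom weights on recovered reads, 1 sex alone, and correlations within groups. Leaving out each pig was added after seeing the data. The fit was tested on simulated data. Pigs were numbered within groups in accession order, and the labels do not give lane, litter or age per pig. The paper limited full sibs within a group but did not exclude them, and divided the libraries over several lanes. The fits and permutations treated the pigs as independent. Symbols came from a table of gene IDs. 61 of 62 members had a RefSeq entry.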

Additional observations from a re-analysis of the deposited data

How the results depend on the processing

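All other settings tried left 0 members called between the groups. The fits without 1 pig covered only obese against lean and males against females. For obese against lean they called 0 members, except that HSPA12B passed without lean pig 8, so that the count ranged from 0 to 1. For males against females the count was 2 with each pig's median subtracted, with the whole size factor and with voom weights, where HSPH1 passed too at differences of 0.52 in all 3 (3.23% of members, against 2.64%, 2.72% and 2.86% of all genes), and it ranged from 0 to 3 without 1 pig. Members at an unadjusted p below 0.05 for intermediate against lean numbered 5, and 9, 8 and 8 with the median subtracted, the whole size factor and voom weights, where 13.4%, 13.4% and 13.5% of all genes were at that level. For the interaction they numbered 7, and 3 under each of these 3 scalings, against 11.8%, 11.9% and 12.0% of all genes. Of 24 tested correlations 17 passed, and 10 with the whole size factor.

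Signs changed for group and sex differences that had not passed, and the cause was not tested. The genes of this paragraph were named for that sign change. For obese minus lean, the fit without sex gave DNAJB5 -0.014, HSPA13 -0.015, HSPA4L -0.021 and HSPH1 -0.0062, and 2 groups alone gave DNAJB5 -0.0016. In females alone the values were BAG6 0.00049, DNAJB1 -0.11, DNAJB14 -0.029, DNAJB5 -0.40, DNAJC1 -0.25, DNAJC10 -0.034, DNAJC14 -0.12, DNAJC16 -0.14, DNAJC18 -0.082, DNAJC24 0.030, DNAJC25 -0.20, HSP90AA1 -0.051, HSPA13 -0.18, HSPA14 0.031, HSPA1L -0.016, HSPA4L -0.021, HSPBP1 0.14, HSPH1 -0.029, PDIA4 -0.080 and PDIA5 -0.16. In males alone they were CCT5 0.089, DNAJA3 -0.094, DNAJB12 0.013, DNAJB2 -0.094, DNAJB4 0.18, DNAJB9 0.028, DNAJC11 0.014, DNAJC17 0.12, DNAJC19 -0.018, HSP70.2 -0.21, HSPA9 -0.047 and HSPBAP1 0.096. Leaving out 1 pig changed the sign of 16 of 62 members, among which HSPA13 ranged from -0.051 to 0.046, HSPH1 from -0.029 to 0.13, HSP70.2 from -0.14 to 0.088 and HSPA4L from -0.12 to 0.14, and of 15 of 62 for males minus females. For males minus females, the median subtraction gave DNAJC6 0.013, HSP70.2 0.0011, HSP90B1 0.00859 and HSPG2 0.0061, the whole size factor DNAJC6 0.0099, HSP90B1 0.0059 and HSPG2 0.0034, and voom weights DNAJC6 0.049, HSP90B1 0.00531 and HSPG2 0.0043. 2 correlations that passed over all pigs on the deposited values changed sign within a group: the r of HSPH1 with DNAJB1 was -0.050 in intermediate pigs and that of HSPA5 with PDIA5 -0.24 in obese pigs.

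With 12 pigs a group, the 95% intervals of the obese minus lean differences of the members reached from 0.11 for DNAJA2 to 0.61 for DNAJC6 on either side of the estimate. The adjusted threshold asks for more than an interval that excludes 0, since BAG3 at 0.24 (interval width to either side 0.17) and HSPG2 at 0.34 (interval width to either side 0.23) did not pass. No paired analysis was possible because the replicate numbers only name pigs in accession order.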
